A study of Mus musculus with 18 samples.

Results

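Interferon-stimulated genes (ISGs) were examined in the RNA of 18 mouse descending aortas. The set holds 34 genes listed by symbol as members of the interferon response, and all 34 were found among the 54281 genes of the count table. The members are 5 transcription factors of the response, 8 sensors of foreign nucleic acid and genes of the oligoadenylate synthetase family, 3 genes of the ISG15 modifier system, 3 IFIT genes, 5 large GTPases and 10 other effectors. The 3 groups of 6 male C57BL/6 mice were compared with each other. The HGPS mice (labelled LMNAG609G, 64 to 75 d old) model Hutchinson-Gilford Progeria Syndrome and carry, in homozygous form, a progeria mutation at the endogenous Lmna locus, so that progerin, a truncated Lamin A, is made wherever Lmna is expressed. The 2-mo WT mice were 62 d old except one of 95 d, while those of the 24-mo WT group had reached 609 to 762 d. The paper states that WT mice were bought from a supplier and aged to 24 mo, and that the HGPS line came from another laboratory. Whether the 2-mo WT mice were bought or bred from the HGPS line is not stated. Genotype and source may therefore not be separable. Each library is one aorta with its intima, media and adventitia together. The mutation changes a single base, so the count of Lmna does not check the labels.

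Interferons are secreted proteins that cells release on sensing viral or misplaced nucleic acid. Type I interferons act through the receptor Ifnar1 and Ifnar2 and the kinases Jak1 and Tyk2 to bring Stat2 and Irf9 into a complex that binds the interferon-stimulated response element (ISRE) in the promoters of ISGs, while interferon gamma acts through Ifngr1 and Ifngr2 and on another element. In the artery wall, smooth muscle cells, endothelium and resident macrophages can all mount the response.

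The ISRE is a pair of GAAA half-sites with 2 bases between them, and it is shown here because it is the sequence through which most of these genes answer interferon. GAAANNGAAA was searched on both strands in RefSeq promoter windows of GRCm38.p6, which run from 250 bases before to 50 bases after each gene's start. The windows at hand covered 26 of the 34 members, with no match for Mx1, Mx2, Usp18, Dhx58, Parp14, Rtp4, Zbp1 and Ifi27l2a. The pattern stood in the windows of 14 of the 26 genes (53.8%) and of 3.99% of all 27025 genes with a window. It was held by 6 of 10 members that were higher in HGPS than in 2-mo WT and by 8 of 16 other members. The element of interferon gamma, TTCNNNGAA, was in 7 of the 26 windows (26.9%) and in 9.55% of all. Below are the 200 bases before the start of the 5 genes with the pattern that had the smallest adjusted p in HGPS against 2-mo WT, with the pattern in capitals, read 5′ to 3′ on the strand of the gene. They come from chr19:34640689-34640888 (plus strand), chr7:104465194-104465393 (minus), chr5:120907526-120907725 (minus), chr19:34583329-34583528 (plus) and chr4:156200819-156201018 (minus).
Ifit1: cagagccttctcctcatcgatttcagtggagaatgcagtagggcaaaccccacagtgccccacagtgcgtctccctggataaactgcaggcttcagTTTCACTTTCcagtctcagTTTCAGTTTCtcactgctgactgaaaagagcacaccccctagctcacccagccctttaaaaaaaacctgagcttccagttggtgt
Trim30a: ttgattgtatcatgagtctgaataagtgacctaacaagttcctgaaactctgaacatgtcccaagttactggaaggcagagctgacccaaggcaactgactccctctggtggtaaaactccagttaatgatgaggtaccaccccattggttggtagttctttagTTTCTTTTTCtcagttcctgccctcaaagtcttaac
Oas1a: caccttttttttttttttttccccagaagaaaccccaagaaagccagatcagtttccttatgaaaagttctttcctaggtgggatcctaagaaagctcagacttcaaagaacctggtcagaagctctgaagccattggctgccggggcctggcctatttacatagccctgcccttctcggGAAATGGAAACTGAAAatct
Ifit3: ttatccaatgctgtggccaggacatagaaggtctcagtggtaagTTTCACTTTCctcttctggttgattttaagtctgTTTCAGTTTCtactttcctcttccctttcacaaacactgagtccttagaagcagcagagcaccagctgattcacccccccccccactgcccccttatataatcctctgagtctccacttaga
Isg15: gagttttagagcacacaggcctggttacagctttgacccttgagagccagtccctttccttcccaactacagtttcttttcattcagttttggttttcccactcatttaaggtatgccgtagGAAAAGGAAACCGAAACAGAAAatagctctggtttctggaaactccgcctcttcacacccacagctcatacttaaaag
Counted from the start, Ifit1 has the pattern at -104 and -85, Ifit3 at -156 and -122, Isg15 in an overlapping run at -78, -72 and -66, Oas1a at -20 and -14, and Trim30a at -36.

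Counts per mouse totalled 12413229 to 30844775, and a minimum of 10 counts in 6 mice left 15210 genes to test, all 34 members among them. Levels are given in CPM, counts relative to the library total after TMM scaling. Zbp1, Oasl1 and Mx1 passed the filter only through the HGPS mice, so that the main counts of members are also given without them. In these genes 2 mice stood apart. The 24-mo WT mouse 6 had the highest level of its group in 29 of the 34 members, and HGPS mouse 4 had it in 23. How often each was highest over all tested genes is not at hand, so that these counts have no background. HGPS mouse 4 also had the largest library, with 30844775 counts. Results that rest on these 2 mice are given with and without them. Markers of smooth muscle, the main cell of the media, summed to 29525 to 38055 CPM in 2-mo WT, 19696 to 27447 CPM in HGPS and 30521 to 34757 CPM in 24-mo WT.

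In the young WT aorta the members ran from 0.181 CPM for Mx1 to 42.7 CPM for Parp14 (means of 6 mice). Per kilobase of annotated exon, Ifi27l2a was the highest at 72.1 CPM per kb, followed by Bst2 at 15.8 and Gbp2 at 15.6, and Mx1 was the lowest at 0.0477. Bst2 and Gbp2 differed by less than the spread between mice. The 2 members with the least spread, Ddx58 and Parp14, were among the abundant ones. Ddx58 varied by 4.10% between the 6 mice and Parp14 by 4.46% (coefficient of variation), against 67.0% for Rsad2 and 60.5% for Isg15. Mean counts were 612 for Ddx58, 735.5 for Parp14, 94 for Rsad2 and 18.8 for Isg15. Counting noise is larger at low counts and is part of these spreads.

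In HGPS aortas 16 of the 34 members were higher than in 2-mo WT and 2 were lower, by the quasi-likelihood test of edgeR (adjusted p below 0.05). That is 47.1% of the members against 22% of all tested genes for the rises, and 5.88% against 21.2% for the falls. Without Zbp1, Oasl1 and Mx1 the rises were 13 of 31 (41.9%). The median log2 fold change was 0.55 over the members (0.48 over the 31) and 0.00 over all tested genes, and 26 of the 34 were above 0. At the study's cut-offs of 1.5-fold and an adjusted p under 0.001, 3 members passed, Ifit1, Oasl2 and Irf7, all higher (8.82%, against 5.27% of all genes). In 11 members the HGPS mice were all above the 2-mo WT mice (32.4%, against 11% of all genes), or in 9 of 31 (29.0%) without those 3 genes, and in none did every HGPS mouse lie below (10.9% of all genes). The 16 members without a call had log2 fold changes from -0.24 (Parp14) to 0.72 (Gbp3). The 11 members whose groups were apart were Irf7, Dhx58, Zbp1, Oas1a, Oasl1, Oasl2, Isg15, Ifit1, Gbp3, Rtp4 and Trim30a. Without HGPS mouse 4 the same 11 were apart and Parp14 was apart in the lower direction, where 13.8% of all genes were apart higher and 13.7% lower. The count past the cut-offs depended on the mouse of another group that shares the fit. Without 24-mo WT mouse 6 it was 9 (26.5%, against 5.24% of all genes), with Zbp1, Oasl1 and Mx1 among them. With DESeq2 it was 11. The share of all genes with DESeq2 is not at hand, so that this count has no background.

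**Figure D1:**
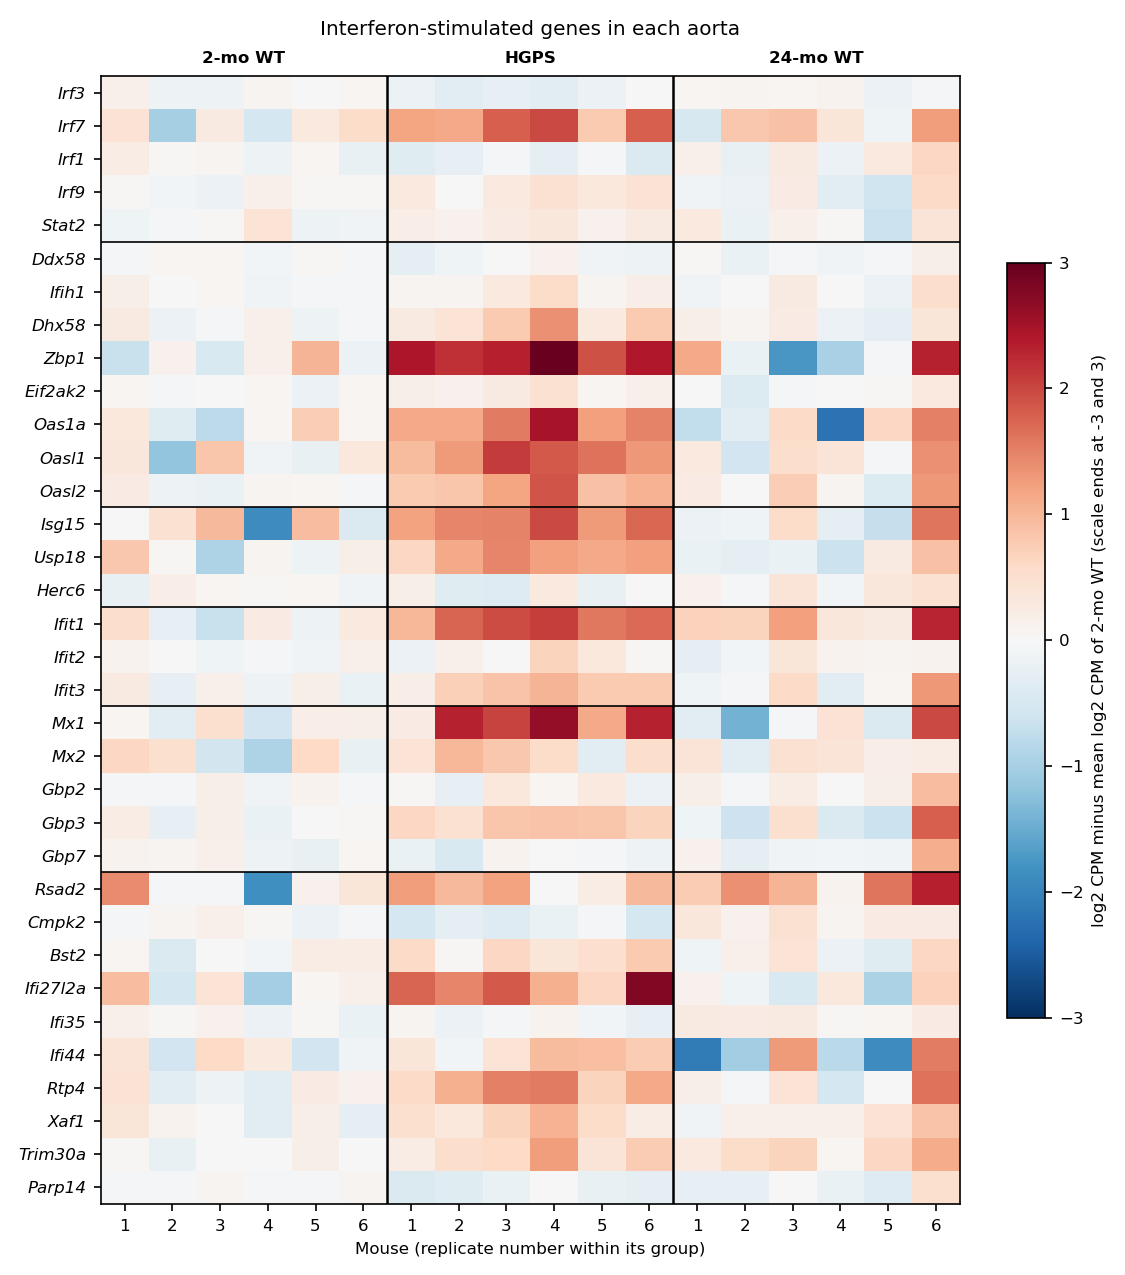
Each row is a gene, each column a mouse, and the colour is the log2 CPM of the gene in that mouse minus its mean log2 CPM in 2-mo WT, with genes in groups of role. Most of the HGPS columns are red at Zbp1, Oas1a, Oasl1, Isg15 and Ifit1, while in 24-mo WT the red column is that of mouse 6 (median difference over the 34 genes 0.87, against -0.11 to 0.32 in the other 5).

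Among the 5 transcription factors only Irf7 rose in HGPS, beside 22% of all tested genes. Irf7 is itself interferon-induced and drives the second wave of interferon production, whereas Irf3, which starts the first wave and is made constitutively, was slightly lower. Irf7 lay at 1.42 to 4.39 CPM in 2-mo WT (median 3.60), 5.18 to 12.03 CPM in HGPS (median 8.65) and 2.11 to 7.21 CPM in 24-mo WT (median 4.56). HGPS and 2-mo WT mice did not overlap. Its log2 fold change was 1.42 (SE 0.30, adjusted p = 0.00091) in edgeR's fit. Phrf1, which overlaps Irf7 on the other strand, had a mean of 32.04 CPM over the 18 mice, and whether the counting used strand is not given in the sources used here. Irf3 lay at 20.9 to 26.1 CPM in 2-mo WT (median 23.8) and 18.4 to 23.2 CPM in HGPS (median 20.1), which overlap, with a log2 fold change of -0.21 (SE 0.07, adjusted p = 0.0252). The call of Irf3 was lost without HGPS mouse 2 or without 2-mo WT mouse 1 or 4 (adjusted p from edgeR of up to 0.0666), without the filter on low counts, and with both mice that stood apart left out (adjusted p = 0.0552). Irf9 and Stat2, which act at the ISRE, and Irf1, which answers interferon gamma, did not pass the test. Irf9 was at 0.31 (adjusted p = 0.0855) and Irf1 at -0.24 (adjusted p = 0.127) in log2 fold change. Irf9 passed without 24-mo WT mouse 6, at an adjusted p of 0.0296, and it shares its strand with the overlapping gene Rnf31.

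Of the 8 sensors and genes of the oligoadenylate synthetase family, 5 rose and none fell, beside 22% and 21.2% of all tested genes. The 2 RNA helicases that start signaling, Ddx58 (RIG-I) and Ifih1 (MDA5), were among those that did not pass, as was Eif2ak2 (PKR), a kinase that stops translation on double-stranded RNA. Eif2ak2 passed as higher without 24-mo WT mouse 6, at 0.22 (adjusted p = 0.0396) in edgeR's test. Dhx58 (LGP2), a relative of the 2 helicases that tunes them, lay at 1.54 to 2.11 CPM in 2-mo WT (median 1.69), 2.13 to 4.66 CPM in HGPS (median 2.71) and 1.43 to 2.28 CPM in 24-mo WT (median 1.93). It was apart in HGPS and 2-mo WT, with a log2 fold change of 0.73 (SE 0.20, adjusted p = 0.00591), and 0.54 (adjusted p = 0.0194) without HGPS mouse 4, the highest. Zbp1, a sensor of left-handed double helices that can trigger cell death, had the largest log2 fold change of the 34, 2.52 (SE 0.55, adjusted p = 0.00125). Zbp1 counts were low, at 0.230 to 0.962 CPM in 2-mo WT (median 0.418), 1.88 to 4.00 CPM in HGPS (median 2.61) and 0.0540 to 2.53 CPM in 24-mo WT (median 0.383). All 6 HGPS mice had at least 10 counts of Zbp1, as did 1 of the 6 2-mo WT mice.

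Oligoadenylate synthetases such as Oas1a make the second messenger that switches on RNase L. The 3 genes of the family on the list, Oas1a and its relatives Oasl1 and Oasl2, rose. Oas1a lay at 0.908 to 2.83 CPM in 2-mo WT (median 1.70), 3.74 to 9.63 CPM in HGPS (median 4.40) and 0.273 to 4.87 CPM in 24-mo WT (median 1.89). HGPS mouse 4 was far above the rest of its group, and the log2 fold change was 1.55 (SE 0.43, adjusted p = 0.00665) with it and 1.27 (adjusted p = 0.0215) without it. Oasl2 and Oasl1 are relatives with ubiquitin-like domains. Oasl2 lay at 4.54 to 6.15 CPM in 2-mo WT (median 5.26), 9.08 to 19.6 CPM in HGPS (median 10.3) and 3.92 to 13.1 CPM in 24-mo WT (median 5.89), with a log2 fold change of 1.17 (SE 0.24, adjusted p = 0.000767), and Oasl1, which restrains the translation of Irf7, at 0.0592 to 0.559 CPM in 2-mo WT (median 0.302), 0.617 to 1.48 CPM in HGPS (median 0.925) and 0.143 to 0.863 CPM in 24-mo WT (median 0.367), with one of 1.72 (SE 0.40, adjusted p = 0.0018). All 3 were apart between HGPS and 2-mo WT. Oasl1 and Oasl2 are neighbours (chr5:114923240-114937915 and chr5:114896936-114912234). Of the family outside the 34, Oas1g, Oas2 and Oas3 were higher in HGPS, at 2.16 (adjusted p = 0.00168), 2.04 (adjusted p = 0.000258) and 2.49 (adjusted p = 0.00442), Oas1c was lower, at -0.71 (adjusted p = 0.00201), and Oas1b was at 0.16 (adjusted p = 0.735). Oas1a has near-identical copies in its cluster, and how the authors' estimates divided shared reads is uncertain.

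Isg15, a ubiquitin-like protein that is joined to other proteins, and Usp18, the protease that removes it and holds back the interferon receptor, both rose in HGPS. Isg15 lay at 0.162 to 1.82 CPM in 2-mo WT (median 1.06), 2.19 to 3.78 CPM in HGPS (median 2.62) and 0.509 to 2.90 CPM in 24-mo WT (median 0.775). The HGPS and 2-mo WT mice were apart, with a log2 fold change of 1.35 (SE 0.41, adjusted p = 0.0122). Usp18 lay at 0.838 to 3.03 CPM in 2-mo WT (median 1.75), 2.64 to 4.83 CPM in HGPS (median 3.94) and 1.04 to 3.21 CPM in 24-mo WT (median 1.46), and one 2-mo WT mouse reached into the HGPS range. Its log2 fold change was 1.09 (SE 0.27, adjusted p = 0.00285). Herc6, the ligase that attaches Isg15 in the mouse, was at 10.02 ± 1.01 CPM in 2-mo WT against 9.53 ± 1.89 CPM in HGPS (SD, n = 6 each) and did not pass the test (adjusted p = 0.702).

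The IFIT genes encode proteins that bind foreign RNA ends and lie within one stretch of chromosome 19, yet they differed in level and response. Ifit1 (chr19:34640871-34650009) had the smallest adjusted p of all members. It lay at 1.26 to 2.98 CPM in 2-mo WT (median 2.13), 4.21 to 9.0 CPM in HGPS (median 6.99) and 2.5 to 10.3 CPM in 24-mo WT (median 3.32). HGPS and 2-mo WT were apart, and the log2 fold change was 1.71 (SE 0.31, adjusted p = 0.000265) in edgeR's fit, or 3.26-fold. Ifit3 (chr19:34583531-34588731) lay at 8.77 to 12.6 CPM in 2-mo WT (median 10.6), 12.1 to 21.4 CPM in HGPS (median 18.1) and 8.23 to 26.1 CPM in 24-mo WT (median 10.4). HGPS mouse 1 was within the range of 2-mo WT and the other 5 were above it, with a log2 fold change of 0.74 (SE 0.22, adjusted p = 0.0117). Its near copy Ifit3b had a log2 fold change of 1.04 (adjusted p = 0.00876), and reads of the pair may be divided between them. Ifit2 (chr19:34550694-34576419), the most abundant of the 3, was at 31.3 ± 2.42 CPM in 2-mo WT against 35.7 ± 7.76 CPM in HGPS (SD, n = 6 each) and did not pass (adjusted p = 0.216).

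Of the 5 large GTPases 1 rose, beside 22% of all tested genes. Mx1, whose protein traps viral particles but is truncated in C57BL/6 mice, rose. It was at 0.181 ± 0.0712 CPM in 2-mo WT against 0.982 ± 0.524 CPM in HGPS (SD, n = 6 each). The log2 fold change was 2.40 (SE 0.59, adjusted p = 0.00307). Its counts were few, and HGPS mouse 1 lay inside the 2-mo WT range while 5 mice lay above it. Mx2, annotated as a polymorphic pseudogene, was at 0.619 ± 0.302 CPM and 0.870 ± 0.273 CPM (SD, n = 6 each) and did not pass. The guanylate-binding proteins Gbp2, Gbp3 and Gbp7, which are strongly induced by interferon gamma and attack the vacuoles of pathogens, lie side by side on chromosome 3. Gbp3 lay at 8.47 to 11.7 CPM in 2-mo WT (median 10.1) and 13.9 to 18.2 CPM in HGPS (median 16.9). The groups were apart, but the adjusted p was above the threshold, with a log2 fold change of 0.72 (SE 0.31, adjusted p = 0.073). Without 24-mo WT mouse 6, which was at 34.7 CPM, it was 0.72 (SE 0.16, adjusted p = 0.00138). Gbp2 was 39.2 ± 3.24 CPM and 40.8 ± 6.72 CPM and Gbp7 25.1 ± 2.67 CPM and 23.1 ± 2.98 CPM in 2-mo WT and HGPS (SD, n = 6 each), without passing.

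Among the other effectors 5 of 10 rose and 1 fell, beside 22% and 21.2% of all tested genes. Ifi27l2a, a small membrane protein gene of the interferon-inducible ISG12 family, had the largest gain in CPM of all members. It lay at 14.9 to 58.0 CPM in 2-mo WT (median 32.8), 46.6 to 210.2 CPM in HGPS (median 93.6) and 15.8 to 49 CPM in 24-mo WT (median 30.5). The lowest HGPS mouse was below the highest 2-mo WT mouse, and the log2 fold change was 1.61 (SE 0.35, adjusted p = 0.00103). Rtp4, a chaperone of membrane receptors, lay at 2.01 to 3.53 CPM in 2-mo WT (median 2.57), 3.87 to 7.81 CPM in HGPS (median 5.60) and 1.74 to 8.20 CPM in 24-mo WT (median 2.76), with HGPS and 2-mo WT apart. Its log2 fold change was 1.12 (SE 0.30, adjusted p = 0.00512). Trim30a, a ubiquitin ligase that restrains inflammatory signaling, lay at 7.76 to 10.4 CPM in 2-mo WT (median 9.17), 10.7 to 21.9 CPM in HGPS (median 13.6) and 9.43 to 19.7 CPM in 24-mo WT (median 13.7). HGPS was apart from 2-mo WT, with a log2 fold change of 0.67 (SE 0.17, adjusted p = 0.00329).

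The remaining rises were smaller. Xaf1, a partner of a caspase inhibitor, lay at 2.68 to 4.45 CPM in 2-mo WT (median 3.55) and 4.03 to 7.22 CPM in HGPS (median 4.94), which overlap, with a log2 fold change of 0.56 (SE 0.18, adjusted p = 0.0165). Without HGPS mouse 4 Xaf1 did not pass, at 0.44 (adjusted p = 0.051). Bst2 (tetherin), which holds budding virus at the cell surface, lay at 10.4 to 16.6 CPM in 2-mo WT (median 14.4) and 14.4 to 24.2 CPM in HGPS (median 20.4), which overlap too, with a log2 fold change of 0.48 (SE 0.16, adjusted p = 0.0201). Bst2 did not pass without HGPS mouse 6 or without 2-mo WT mouse 2, at adjusted p values of up to 0.0523. Cmpk2, a nucleotide kinase next to Rsad2 on chromosome 12, fell, from 6.90 to 8.59 CPM (median 7.75) to 5.33 to 7.52 CPM (median 6.14), a log2 fold change of -0.32 (SE 0.10, adjusted p = 0.0155). Rsad2 (viperin), which makes a chain-ending nucleotide, varied widely between mice, at 1.05 to 11.1 CPM in 2-mo WT and 4.09 to 9.87 CPM in HGPS, and its log2 fold change of 0.53 (adjusted p = 0.293) did not pass. Ifi44, Ifi35 and Parp14, an ADP-ribosyltransferase, did not pass either, the last at -0.24 (adjusted p = 0.0889). Parp14 passed as lower without 24-mo WT mouse 6 (adjusted p = 0.0122).

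**Figure D2:**
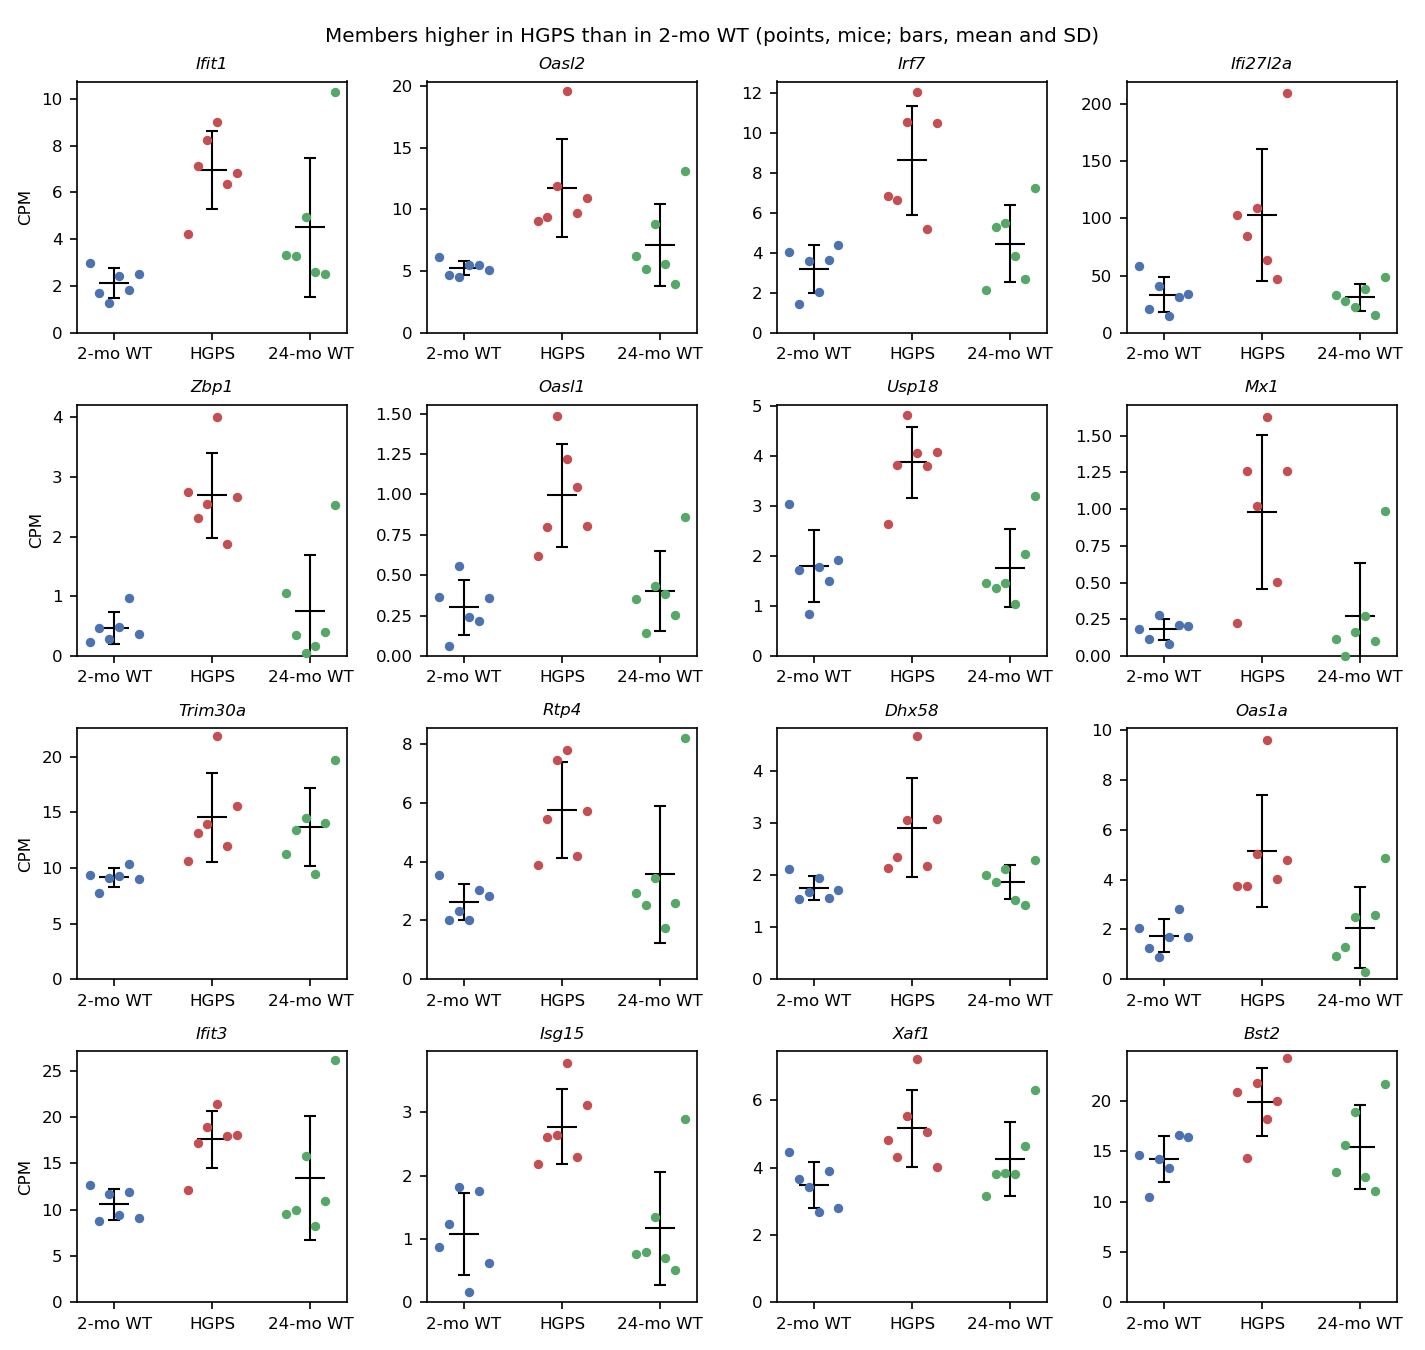
The 16 members higher in HGPS than in 2-mo WT, with CPM on the y axis, a point for each mouse and bars for the mean and SD of 6 mice, cut at 0. In most panels the HGPS points sit above the 2-mo WT points, and 24-mo WT mouse 6, the rightmost point, is the highest of its group in all 16, as at 10.3 CPM for Ifit1.

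The members that rose were mostly scarce in the young WT aorta. Their median level in 2-mo WT was 2.38 CPM, with 11 of 16 under 5 CPM and 1, Ifi27l2a, above 20 CPM. The other 18 members had a median of 18.1 CPM, with 3 under 5 CPM and 8 above 20 CPM. Without Zbp1, Oasl1 and Mx1, which passed the filter through HGPS only, the 13 others that rose had a median of 3.18 CPM, with 8 under 5 CPM. Per kilobase of exon the medians of the 16 and the 18 were 0.832 and 3.82 CPM per kb. These levels enter the fold changes themselves, and the difference is given as a description.

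**Figure D3:**
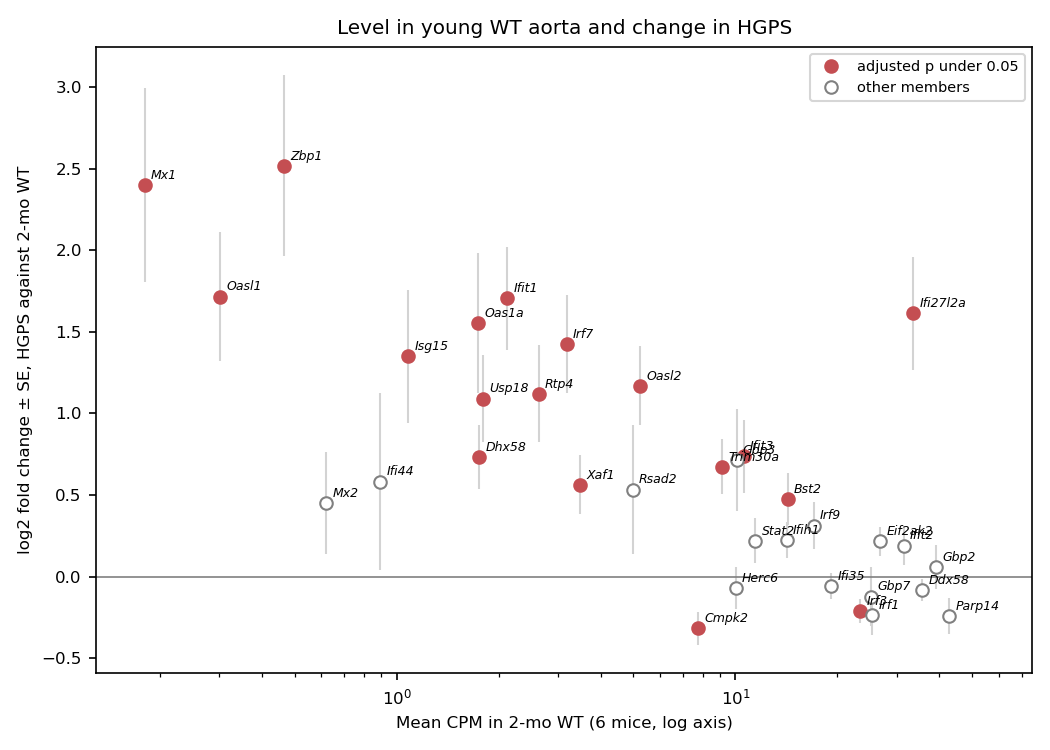
Each point is a gene, with its mean CPM in 2-mo WT on a log x axis and its log2 fold change in HGPS against 2-mo WT with SE on the y axis, filled where the adjusted p is under 0.05. The filled points above 0 lie mainly at the left, below 5 CPM, and Ifi27l2a stands alone at the upper right, at 33.4 CPM and 1.61.

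Genes of the pathway outside the 34 were read from a list of 112, of which 88 were tested, and 33 were higher (37.5%) and 10 lower (11.4%) in HGPS than in 2-mo WT, beside 22% and 21.2% of all tested genes. The interferons themselves were nearly absent from the counts. Of 20 ligand genes, 16 had 0 counts in every mouse, and the other 4 had 6 counts together over the 18 mice, none in 2-mo WT, 4 in HGPS and 2 in 24-mo WT. At most 2 counts of a ligand were seen in a mouse. Differences in the ligands were not detectable at this depth.

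Receptors and kinases of the pathway were higher in HGPS in 3 of 10 cases and lower in 1. Ifnar2, a chain of the type I receptor, went from 34.5 ± 1.60 CPM to 43.7 ± 4.65 CPM (SD, n = 6 each), a log2 fold change of 0.34 (adjusted p = 0.000407) in edgeR's test, and Ifngr2, a chain of the interferon gamma receptor, changed by 0.32 (adjusted p = 0.00624). The type III receptor chain Ifnlr1 fell from 1.80 ± 0.405 CPM to 0.553 ± 0.284 CPM (SD, n = 6 each), or -1.67 (adjusted p = 0.000169). At 24 mo Ifnlr1 was higher than at 2 mo, at 1.08 (adjusted p = 0.00998). Of 5 other IRF genes, Irf8 rose by 1.53 (adjusted p = 4.68e-05) and Irf5 by 1.11 (adjusted p = 4.35e-05), both known from macrophages. Among 13 sensing adaptors 4 were higher (30.8%) and 2 lower (15.4%), with Samhd1, which degrades nucleotides, at 0.63 (adjusted p = 8.92e-06), the RNA receptor Tlr7 at 1.16 (adjusted p = 0.00145) and the kinase Ikbke at -0.76 (adjusted p = 0.00787). Of 5 negative regulators, the phosphatase Ptpn6 rose by 0.91 (adjusted p = 0.000752) and Pias1, an inhibitor of cytokine signaling, changed by -0.55 (adjusted p = 5.04e-06).

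A wider list of 47 ISGs outside the 34 was read as well. Of the 44 tested, 21 were higher (47.7%) and 6 lower (13.6%) in HGPS than in 2-mo WT, with a median log2 fold change of 0.36. Lgals3bp was at 1.10 (adjusted p = 1.14e-05), and Ifi211 and Ifi204, relatives in a family of DNA-binding proteins, were at 1.44 (adjusted p = 3.02e-05) and 1.43 (adjusted p = 5.36e-05). Of 12 GTPases of the interferon gamma response, 11 were tested and 2 were higher (18.2%, against 22% of all tested genes), Gbp10 at 2.33 (adjusted p = 0.00637) and Gbp6 at 0.73 (adjusted p = 0.0346). The call of Gbp6 was lost when any of 7 single mice was left out.

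Markers of macrophages were also higher in HGPS as a group. Of 12 macrophage markers 11 were higher than in 2-mo WT, beside 22% of all tested genes, and none was at 0 in a group. Their sum was 632 to 901 CPM in 2-mo WT, 1080 to 1697 CPM in HGPS and 601 to 1200 CPM in 24-mo WT. Among HGPS mice the sum was lowest in mouse 2 and highest in mouse 6. The median log2 difference of the risen members from 2-mo WT was lowest in mouse 1 (0.70, sum 1442 CPM) and highest in mouse 4 (1.70, sum 1417 CPM). White fat markers (6 of 7 higher, summed 182 to 1034 against 858 to 2525 CPM) and brown fat markers (8 of 8 higher, 110.3 to 673 against 496 to 1843 CPM) moved as well. Of the smooth muscle markers 5 of 8 were lower, and of the fibroblast markers 3 of 8, beside 21.2% of all tested genes. Endothelial markers summed to 681 to 1512 and 1004 to 1368 CPM, with 1 of 8 higher. Of 7 dendritic cell markers 3 were tested, with a median log2 fold change of -0.30. Cd209a was higher at 1.68 (adjusted p = 0.00164), Zbtb46 was lower at -0.30 (adjusted p = 0.00806), and the other, at or below the median, was not called. Those not tested include Flt3, with means of 0.0620 CPM in 2-mo WT and 0.915 CPM in HGPS, Xcr1 with 0.0175 and 0.582 CPM, and Clec9a with 0.0838 and 0.461 CPM. These were picked after their values were seen, and all are higher in HGPS. Not every untested marker is named, so that they do not stand for the list. Over all 7 dendritic cell markers the sum did not rise. It was 20.3 to 27.5 CPM in 2-mo WT (median 24.0) and 19.8 to 26.1 CPM in HGPS (median 22.1). T and NK cell markers summed to 1.05 to 3.53 and 1.97 to 5.54 CPM, B cell markers to 1.05 to 5.33 and 0.836 to 3.12 CPM, and neutrophil markers to 0.981 to 3.73 and 1.16 to 5.23 CPM, with Ly6g at 0 in both WT groups. In whole aorta, more cells of a type and more RNA per cell cannot be told apart, and the part of these cell types in the rise of the members was not tested.

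Natural aging was compared with the same 2-mo WT mice, which the HGPS comparison shares. At 24 mo 2 of the 34 members were higher than at 2 mo, Ifit1 and Trim30a (5.88%, against 6.29% of all tested genes), and none was lower (5.38% of all genes), by edgeR and by DESeq2 alike. At an unadjusted p under 0.05, 5 were higher and none lower. No member was past 1.5-fold and an adjusted p under 0.001 (1.28% of all genes were, higher), and in none were the ages apart in either direction (3.20% of all genes higher, 3.08% lower). Ifit1 had a log2 fold change of 1.07 (SE 0.32, adjusted p = 0.0334) and Trim30a one of 0.58 (SE 0.17, adjusted p = 0.03). Rsad2, with 4.41 to 20.9 CPM at 24 mo (median 9.46), was at 1.06 (adjusted p = 0.0892) and did not pass. The median over the members was 0.18, with 28 of 34 above 0, and over all tested genes 0.01.

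Neither call was kept in every setting. Without mouse 6 no member was called in either direction, while at an unadjusted p under 0.05 3 were higher and 1 lower, with Ifit1 at 0.64 (adjusted p = 0.094) and Trim30a at 0.45 (adjusted p = 0.0753). The median over the members was then 0.01, with 18 of 34 above 0. In 10 members the log2 fold change turned below 0, as in Zbp1, which went from 0.68 to -0.20, and Gbp3, from 0.36 to -0.22, none of them called. With HGPS mouse 4 left out too, Trim30a was called again, at 0.45 (adjusted p = 0.0224), and Parp14 was called lower. Both calls were also lost without 24-mo WT mouse 3 or without 2-mo WT mouse 2 or 3, that of Trim30a without 2-mo WT mouse 4, and that of Ifit1 without 2-mo WT mouse 5.

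Mouse 6 of the 24-mo group was high in GTPases of the interferon gamma response. Gbp3 was at 34.7 CPM in mouse 6 and 6.32 to 14.0 CPM in the other 5. Gbp2 was at 73.8 CPM in mouse 6 and 38.4 to 45.6 CPM in the other 5, and Gbp7 at 53.7 CPM in mouse 6 and 20.4 to 27.5 CPM in the other 5. These exceed every HGPS mouse as well. Ifit1 was at 10.3 CPM in mouse 6 and 2.5 to 4.96 CPM in the other 5, and Irf1 at 38.9 CPM in mouse 6 and 21.7 to 31.1 CPM in the other 5. Of the 11 further GTPases of the interferon gamma response that were tested, all 11 were highest in mouse 6 of its group, and of the 44 other ISGs 23 were. The share of all tested genes is not at hand, so that these counts have no background. The T and NK cell markers were high in mouse 6 as well. They summed to 21.4 CPM in this mouse and to 1.05 to 5.54 CPM in the other 17. Of the 12 markers 10 were highest in it among all mice, and the T cell receptor gene Trac had 42 counts in it and at most 8 in any other mouse. The NK cell genes Ncr1 and Klrb1c were not, with 0 and 1 counts in it and up to 4 and 6 in another mouse. Its macrophage sum of 871 CPM was inside the range of its group, and it had 1 count of Ifng, as did 24-mo WT mouse 5. The part of these cells in its high members was not tested.

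**Figure D4:**
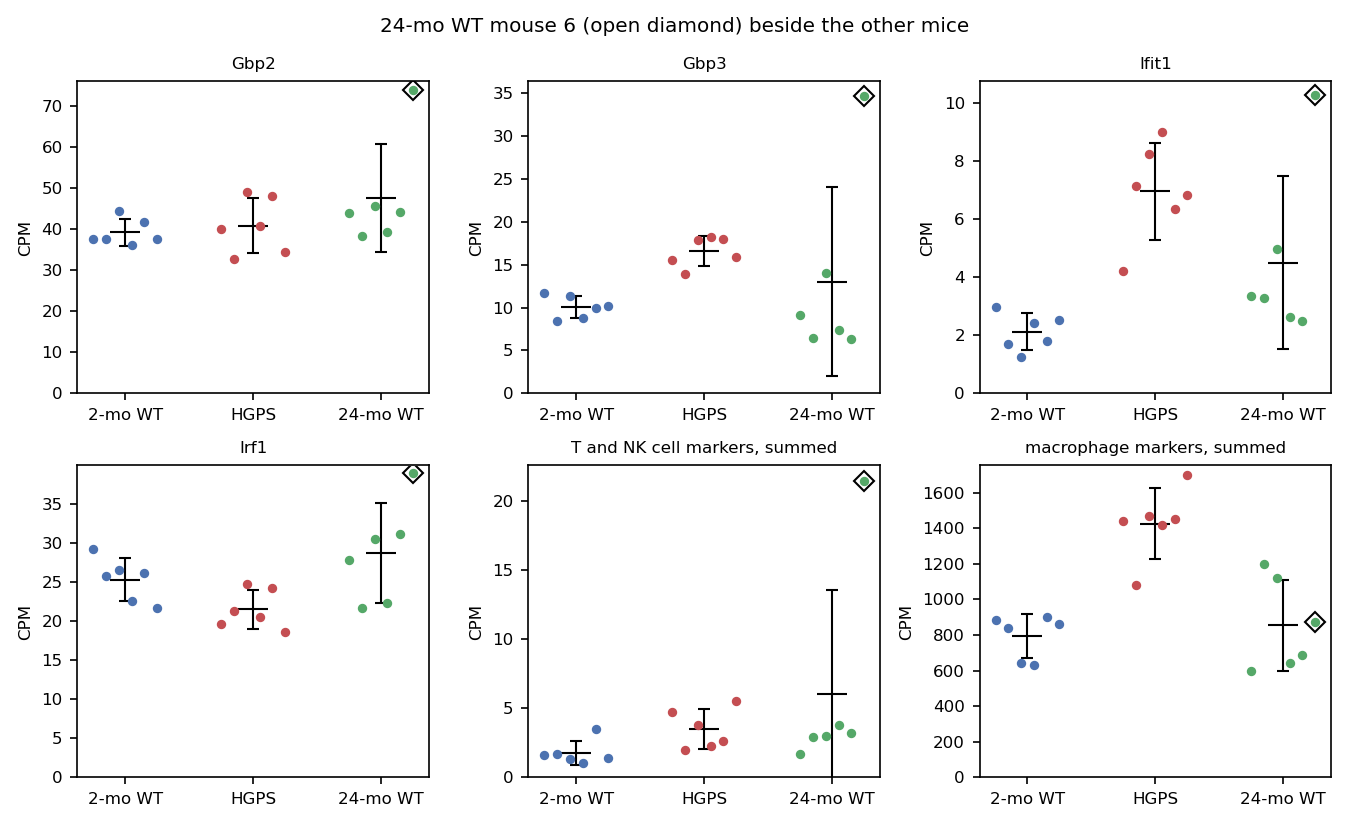
CPM of 4 members, and summed CPM of T and NK cell markers and of macrophage markers, with a point for each mouse and bars for the mean and SD of 6 mice, cut at 0. The open diamond, 24-mo WT mouse 6, is the highest point of all for Gbp2, Gbp3, Ifit1, Irf1 and the T and NK cell sum (21.4 CPM), and inside its group for the macrophage sum (871 CPM).

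The test of HGPS against 24-mo WT is also that of the difference between the HGPS and aging effects, since both are taken against the same mice. In it 11 members were higher in HGPS, Irf7, Dhx58, Zbp1, Eif2ak2, Oas1a, Oasl1, Oasl2, Isg15, Usp18, Mx1 and Ifi27l2a (32.4%, against 23.8% of all tested genes), and 4 were lower, Irf3, Irf1, Cmpk2 and Ifi35 (11.8%, against 23.6%). Without the 3 members that passed the filter through HGPS only, 8 of 31 were higher (25.8%), near the share of all genes. Ifi27l2a passed the study's cut-offs (6.02% of all genes did, higher), at a log2 fold change of 1.73 (SE 0.35, adjusted p = 0.00047). No member had HGPS mice all above the 24-mo WT mice (10.9% of all genes did), and Cmpk2 had them all below (11.3% of all genes), at -0.58 (SE 0.10, adjusted p = 0.000113). Zbp1 was at 1.84 (SE 0.52, adjusted p = 0.00738), Mx1 at 1.85 (SE 0.56, adjusted p = 0.0108) and Usp18 at 1.14 (SE 0.27, adjusted p = 0.00181). Oas1a at 1.32 (adjusted p = 0.0153), Oasl1 at 1.29 (adjusted p = 0.00885), Isg15 at 1.25 (adjusted p = 0.0164), Irf7 at 0.96 (adjusted p = 0.0114), Oasl2 at 0.73 (adjusted p = 0.0165), Dhx58 at 0.65 (adjusted p = 0.0112) and Eif2ak2 at 0.22 (adjusted p = 0.0499) followed. The call of Eif2ak2 was lost in 21 of the 27 alternatives run, and those of Oas1a and Oasl2 in 1 each. Among the falls besides Cmpk2, Irf1 was at -0.42 (adjusted p = 0.00849), Ifi35 at -0.24 (adjusted p = 0.0189) and Irf3 at -0.22 (adjusted p = 0.0188). Trim30a and Ifit1 were called in both comparisons with 2-mo WT. Their difference between HGPS and 24-mo WT did not pass, at an adjusted p of 0.681 for Trim30a and a log2 fold change of 0.64 (adjusted p = 0.0841) for Ifit1.

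This comparison depended on the 24-mo mouse that stood apart. Without it 18 members were higher in HGPS and 4 lower (23.5% and 22.9% of all tested genes), and 9 were past the cut-offs (26.5%, against 5.84% of all genes). In 10 the HGPS mice were all above the 24-mo WT mice (12.1% of all genes), while Cmpk2 had them all below (12.2% of all genes). The 18 include Zbp1, Oasl1 and Mx1, which passed the filter through HGPS only. Zbp1 and Mx1 were among the 9, and Zbp1 and Oasl1 among the 10. The calls added were Irf9, Ifit1, Ifit3, Gbp3, Bst2, Rtp4 and Xaf1, with Ifit1 at 1.06 (adjusted p = 0.000984), Gbp3 at 0.93 (adjusted p = 0.000202) and Rtp4 at 1.12 (adjusted p = 0.000456). Without HGPS mouse 4 instead, 8 were higher and 5 lower, with Eif2ak2, Oas1a and Oasl2 no longer called. That is 23.5% of the members higher, the same share as over all genes, and the 8 include Zbp1, Oasl1 and Mx1. Without both mice 17 were higher and 5 lower (23.2% and 23.2% of all tested genes). In HGPS against 2-mo WT 17 were then higher and 2 lower (21.9% and 21.6% of all tested genes). Both counts of 17 include Zbp1, Oasl1 and Mx1.

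**Figure D5:**
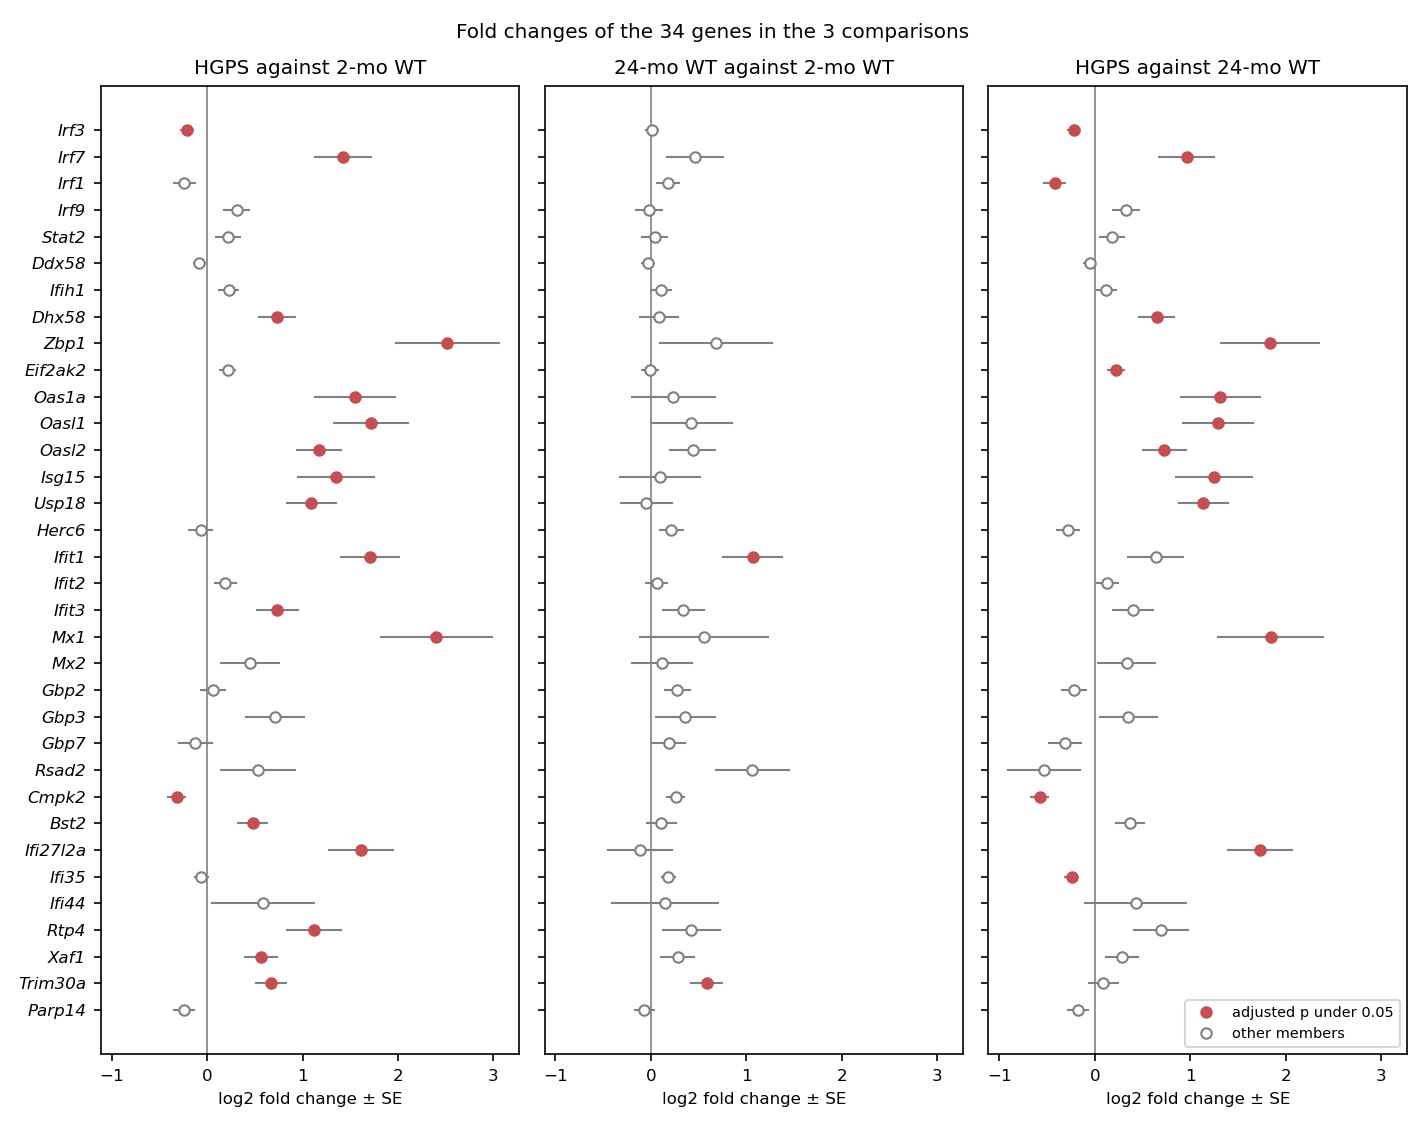
The log2 fold change of each member with its SE in the 3 comparisons, all from the fit with 18 mice, filled where the adjusted p is under 0.05. In HGPS against 2-mo WT 18 points are filled, at 24 mo only those of Ifit1 and Trim30a are, and against 24-mo WT 15 are.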

How the data were processed

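RNA of descending aortas of 18 mice was sequenced as stranded, ribosomal RNA-depleted, paired-end libraries. The authors estimated transcript counts with salmon against a GENCODE annotation of the mouse genome GRCm38, summed them per gene with tximport and deposited estimated counts rounded to whole numbers, which were used as deposited. The processing notes per the labels also name Bowtie 0.12.2 and mm10. Groups were taken from the labels. The members and gene lists were chosen with earlier results of these data known.

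A minimum of 10 counts in 6 mice left 15210 genes, which were tested with edgeR 4.0.16 (R 4.3.3), in one quasi-likelihood fit of the 3 groups with TMM scaling and 15 residual degrees of freedom. P values were adjusted by the Benjamini-Hochberg method over all tested genes. The study's own program, DESeq2 (1.42.0), was an alternative. Differences per mouse were taken on log2 CPM with a prior count of 2. Counts of all genes for 1 mouse were 12413229 at the least and 30844775 at the most. No libraries of a group agreed within sampling noise (chi-square per degree of freedom from 7.64 to 93.6 over 45 pairs). By rule, every member with an adjusted p below 0.05 was given in full, the others by range or count, and up to 3 further genes per role by smallest adjusted p. Members without a call that are named with values, and Gbp3, Ifit3b, Trac, the further Oas genes and the dendritic cell markers, were picked after their values were seen. Gene coordinates come from a GENCODE annotation of GRCm38 and promoters from RefSeq on GRCm38.p6. The fit was tested on simulated data. Salmon divides reads among near-identical genes, which makes the values of Ifit3, Oas1a, Ifi27l2a and the Gbp genes uncertain.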

Additional observations from a re-analysis of the deposited data

Results flagged for a closer look

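In 13 of 102 sets of 6 mice (34 genes in 3 groups), the highest mouse lay far from the other 5, with a gap relative to the range above Dixon's 95% critical value. Chance alone gives such a gap in about 1 of 20 sets if the values are independent and normally distributed. The sets here share the same mice and hold CPM, some near 0, so that 13 of 102 was not tested against chance. Of the 13, 8 were in 24-mo WT mouse 6. It had 10.3 CPM of Ifit1 (2.5 to 4.96 in the other 5), 2.90 of Isg15 (0.509 to 1.35), 0.986 of Mx1 (0 to 0.273) and 8.20 of Rtp4 (1.74 to 3.45). The same mouse had 34.7 CPM of Gbp3 (6.32 to 14.0), 73.8 of Gbp2 (38.4 to 45.6), 53.7 of Gbp7 (20.4 to 27.5) and 59.7 of Parp14 (32.7 to 42.4).

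HGPS mouse 4 was far above its group in 3 genes, with 4.66 CPM of Dhx58 (2.13 to 3.07 in the other 5), 9.63 of Oas1a (3.74 to 5.01) and 19.6 of Oasl2 (9.08 to 11.9). In 2-mo WT, mouse 4 had 15.1 CPM of Stat2 (10.2 to 11.6) and mouse 5 had 0.962 of Zbp1 (0.230 to 0.487).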

How the results depend on the processing

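No called value changed direction under the alternatives run. Among values without a call, 10 members turned from above to below 0 in 24-mo against 2-mo WT without 24-mo WT mouse 6, and Trim30a went from 0.09 to -0.07 in HGPS against 24-mo WT without HGPS mouse 4. Leaving out 1 mouse at a time gave, in HGPS against 2-mo WT, 15 to 19 members higher, 1 to 3 lower, 1 to 9 past the cut-offs and a median log2 fold change of 0.48 to 0.66. In 24-mo against 2-mo WT it gave 0 to 3 higher, 0 lower, 0 past the cut-offs and a median of 0.01 to 0.26. In HGPS against 24-mo WT it gave 8 to 18 higher, 4 to 5 lower, 0 to 9 past the cut-offs and a median of 0.23 to 0.45. DESeq2 put 11 members past the cut-offs in HGPS against 2-mo WT and 2 against 24-mo WT. Without a filter on low counts, HGPS against 2-mo WT had 0 lower and 5 past the cut-offs, and against 24-mo WT 2 lower. A fit of only the 2 groups compared gave 4 lower and 9 past the cut-offs in HGPS against 2-mo WT, and 1 higher at 24 mo. Thinning to equal depth left 1 lower in HGPS against 2-mo WT. With both mice that stood apart left out, chosen after seeing the data, 5 members were past the cut-offs in HGPS against 2-mo WT. At 24 mo 1 was then higher and 1 lower (6.04% and 5.39% of all tested genes). Against 24-mo WT 17 were higher (23.2% of all tested genes) and 6 past the cut-offs. Other counts of this section have no share of all genes beside them and are given as counts only. The cause of these shifts was not tested.

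The labels give the same replicate numbers to all groups, but the samples of a number did not deviate together (r of -0.16 to 0.17, over 0.1 in 2 of 18 pairs). With a replicate block 17 members were higher and 2 lower in HGPS against 2-mo WT, 1 was higher at 24 mo, and 15 were higher in HGPS against 24-mo WT. Low counts limit Mx1, Oasl1, Zbp1 and the ligands.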
